A study of Mus musculus with 6 samples.

Results

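Genes of glucose uptake and glycolysis were followed in CD4 T cells with and without Dicer, the enzyme whose cuts release mature microRNAs from their hairpin precursors. The set named 10 genes: the glucose transporters Slc2a1 and Slc2a3, the hexokinases Hk1 and Hk2, the glycolytic enzymes Gpi1, Pfkp, Tpi1, Eno1 and Pkm, and the transcription factor Hif1a. A gene was measured where an array row carried its symbol and no other, and the rows of a gene were averaged. This gave 8 of the 10 genes on 10 rows, among 19935 genes in all. Gpi1 and Eno1 had no such row and were not analysed here.

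The samples were CD4+CD62L- T cells, called resting by the labels, that were sorted from mouse lymph nodes and left untreated. All animals carried floxed Dicer alleles (Dicer lox/lox). The 3 Dicer WT samples came from animals without Cre (CD4Cre neg) and the 3 Dicer KO samples from animals with it (CD4Cre pos). The Cd4 promoter drives Cre in developing T cells, so other cell types of these animals would keep Dicer. The study calls the samples of a genotype biological replicates. The sources used here do not give strain, age or the number of animals per sample. Total RNA was amplified, labelled with biotin and hybridised to 1-colour Affymetrix MoGene 1.0 ST arrays.

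Glucose enters a T cell through facilitative transporters of the Slc2a family and is trapped by hexokinase as glucose phosphate. Phosphofructokinase commits the sugar to glycolysis, triose phosphate isomerase interconverts the triose products, and pyruvate kinase makes ATP and pyruvate at the end of the pathway. Resting T cells run this pathway slowly and raise it on activation, with Hif1a and other factors inducing many of its genes. HIF-1α protein is destroyed by the Vhl ligase after prolyl hydroxylation by Egln enzymes, and its activity is lowered by Hif1an, an asparaginyl hydroxylase.

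Every deposited row was centred on the median of its 6 arrays, so each value below is a log2 difference from that median and not an expression level. Levels therefore cannot be compared between genes. Array medians lay between -0.0088 and 0.0063. The stored precision of the numbers gave a coarse level class, which can be wrong for a single row. The higher class, at a log value of 8 or more, held 3291 of all 19935 genes. It held 7 of 8 T cell markers (Cd3d, Cd3e, Cd3g, Cd4, Cd2, Cd5 and Cd28), 1 of 8 B cell markers and 0 of 9 myeloid markers. It also held Pecam1, 1 of 5 stromal and endothelial markers, and the list genes Slc2a2, Gapdhs and Gckr. Hk1, Pfkp, Pkm and Hif1a were in it, and Slc2a1, Slc2a3, Hk2 and Tpi1 were not. The row of Dicer1 read 0.12, 0.02 and -0.10 on the Dicer WT arrays 1 to 3 and 0.21, -0.02 and -0.09 on the Dicer KO arrays 1 to 3. Its difference was 0.02 ± 0.09 (SE, n = 3 arrays a genotype, limma adjusted p = 0.949). The sources used here do not say which exons this row covers, so it does not check the deletion.

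The 8 measured genes did not move as a block. Hif1a and the phosphofructokinase Pfkp were higher in Dicer KO, the isomerase Tpi1 was lower, and both transporters, both hexokinases and Pkm did not pass the test. Their median difference was 0.01 on the log2 scale, beside -0.01 over all 19935 genes. Of all genes, 8.73% passed limma at an adjusted p of 0.05, 5.94% higher and 2.79% lower in Dicer KO. The count was 1741 genes, and leaving out Dicer WT 1, Dicer WT 2 or Dicer KO 2 gave 849, 1050 or 729. The higher level class, which holds 4 of the 8 members, had 1024 of its 3291 genes called when fitted alone. The genotypes had no overlap in 26.2% of all genes and in 3 of the 8 members, which were the same 3 that passed. All p-values measure the spread between 3 samples a genotype.

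**Figure D1:**
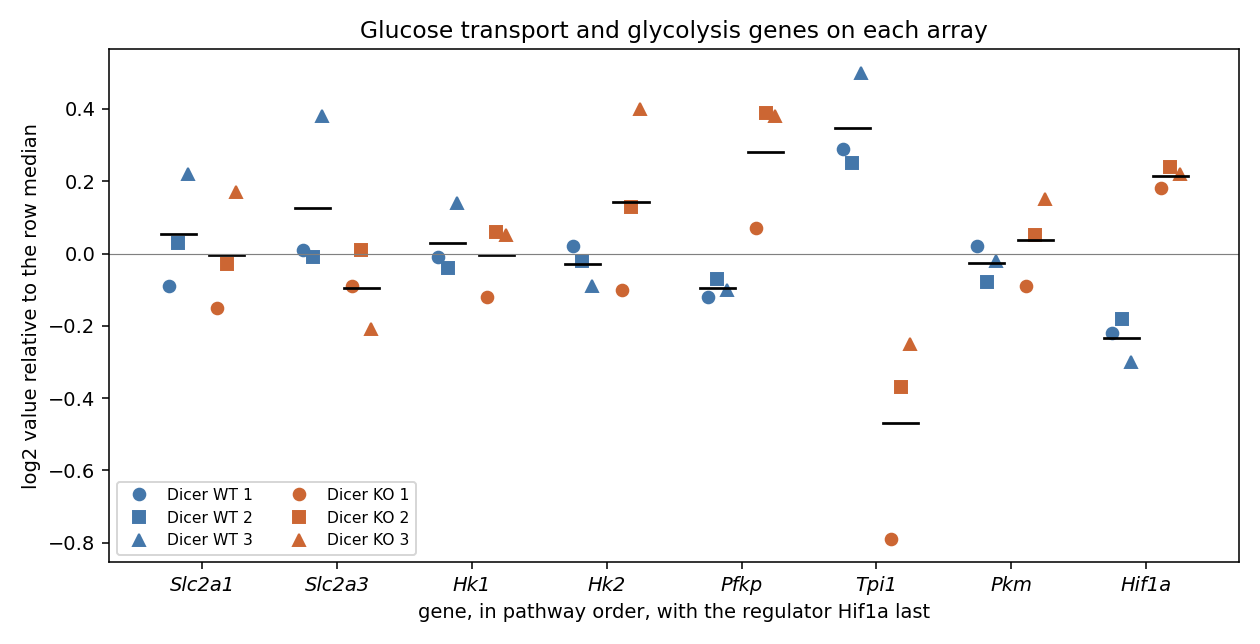
Log2 value relative to the row median (vertical axis) for the 8 measured genes (horizontal axis) on each of 3 Dicer WT arrays (blue) and 3 Dicer KO arrays (orange), with the array number as the marker shape and the genotype mean as a black line. Hif1a, Pfkp and Tpi1 have no overlap between genotypes, with Tpi1 lower in Dicer KO, and the other 5 genes overlap.

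The promoters of the called members are shown first because Hif1a binds a short DNA core, ACGTG or GCGTG, upstream of many glycolytic genes. The windows are the 250 bases before the annotated start, from RefSeq (GRCm38.p6), with every core on either strand in capitals. Overlapping ACGTG matches on both strands form the palindrome CACGTG, a site also read by Myc-type factors.
Hif1a, chr12:73907617-73907866, + strand: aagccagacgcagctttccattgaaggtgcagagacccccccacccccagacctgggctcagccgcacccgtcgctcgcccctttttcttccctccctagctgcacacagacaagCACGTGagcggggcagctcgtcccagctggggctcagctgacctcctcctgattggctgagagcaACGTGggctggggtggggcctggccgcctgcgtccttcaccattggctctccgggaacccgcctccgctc
Pfkp, chr13:6648772-6649021, - strand: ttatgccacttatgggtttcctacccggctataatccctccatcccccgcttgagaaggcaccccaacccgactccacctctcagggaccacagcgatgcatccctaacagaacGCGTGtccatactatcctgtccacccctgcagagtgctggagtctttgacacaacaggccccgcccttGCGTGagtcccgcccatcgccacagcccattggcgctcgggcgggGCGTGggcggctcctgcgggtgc
Tpi1, chr6:124814159-124814408, - strand: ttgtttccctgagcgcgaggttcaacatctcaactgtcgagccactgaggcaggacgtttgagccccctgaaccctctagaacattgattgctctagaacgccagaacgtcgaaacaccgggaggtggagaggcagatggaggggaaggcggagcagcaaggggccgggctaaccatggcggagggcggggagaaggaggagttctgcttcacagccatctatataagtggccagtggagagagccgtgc

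The Hif1a window held 3 ACGTG matches, of which a pair make up 1 CACGTG. The Pfkp window held 3 GCGTG matches and the Tpi1 window held 0 of either core. The promoter table held 7 of the 8 measured genes, and 6 of them had at least 1 window with a core. Hk1 and Pkm have 2 windows each, so by window the count was 6 of 9. Among all 32851 promoter windows of this length, 38.6% held ACGTG or GCGTG, 16.6% held ACGTG, 28.2% held GCGTG and 6.02% held CACGTG. A match is a description of the letters and not a bound site.

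Hif1a, the regulator of the group, was raised on every Dicer KO array. The Dicer WT arrays 1 to 3 read -0.22, -0.18 and -0.30, and the Dicer KO arrays 1 to 3 read 0.18, 0.24 and 0.22. The genotypes were separated by more than the whole range within either one. Hif1a was 1.37-fold higher in Dicer KO (log2 difference 0.45 ± 0.05 SE, 3 arrays a genotype, limma adjusted p = 0.00362). It was called without any 1 of the 6 arrays, with adjusted p from 0.00869 to 0.0247. The genes most like it over the 6 arrays were Igf2r, Itgav and Ankrd17, with Pearson r of 0.998 each, and 522 genes had an r above 0.95 with it.

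Glucose transporter transcripts did not separate by genotype. Slc2a1, the basal transporter GLUT1, read -0.09, 0.03 and 0.22 on the Dicer WT arrays 1 to 3 and -0.15, -0.03 and 0.17 on the Dicer KO arrays 1 to 3. Array 3 was the highest in both genotypes and array 1 the lowest, and the ranges overlapped almost fully. The difference was -0.06 ± 0.11 (SE, 3 arrays each, limma adjusted p = 0.85), with a 95% interval from -0.30 to 0.19. Slc2a3, the high-affinity transporter GLUT3, read 0.01, -0.01 and 0.38 on the Dicer WT arrays and -0.09, 0.01 and -0.21 on the Dicer KO arrays. Dicer WT 3 stood above the other 5 arrays. The Slc2a3 difference was -0.22 ± 0.11 (limma adjusted p = 0.328, 95% interval from -0.49 to 0.04). It was -0.10 without Dicer WT 3 and -0.04 without both arrays numbered 3. A difference of either sign for Slc2a1 is within its interval.

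The hexokinases catalyse the trapping step. Hk2, the inducible form, read 0.02, -0.02 and -0.09 on the Dicer WT arrays 1 to 3 and -0.10, 0.13 and 0.40 on the Dicer KO arrays 1 to 3. The Dicer KO arrays spread widely, with an SD of 0.25 beside 0.05 in Dicer WT, and Dicer KO 1 was the lowest of all 6 arrays. The difference was 0.17 ± 0.12 (SE, 3 arrays a genotype, limma adjusted p = 0.5, 95% interval from -0.11 to 0.45). It was 0.29 without Dicer KO 1, 0.04 without Dicer KO 3 and 0.01 without both arrays numbered 3. Hk1, the constitutive form, had an averaged difference of -0.04 ± 0.07 (limma adjusted p = 0.864) that combined 2 rows of opposite direction. Only 1 of these rows is annotated with RefSeq transcripts of Hk1.

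The Hk1 row whose annotation lists RefSeq transcripts of the gene was higher on every Dicer KO array. It read -0.08, -0.19 and -0.04 on the Dicer WT arrays 1 to 3 and 0.04, 0.17 and 0.21 on the Dicer KO arrays 1 to 3. Fitted row by row over the 21780 rows with 1 symbol, its difference was 0.25 ± 0.07 (limma adjusted p = 0.065). The other row carries a lone GenBank accession and no RefSeq transcript, and it ran the opposite way. It read 0.06, 0.12 and 0.33 on the Dicer WT arrays and -0.28, -0.06 and -0.11 on the Dicer KO arrays, a difference of -0.32 ± 0.09 (limma adjusted p = 0.0783).

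The same lone accession stands in the annotation of 16 further rows that name Hk1 together with the ribosomal protein gene Rpl17. All 16 were lower on every Dicer KO array than on every Dicer WT array, with differences from -0.39 to -0.28. Their median value was 0.10, 0.12 and 0.19 on the Dicer WT arrays 1 to 3 and -0.28, -0.10 and -0.11 on the Dicer KO arrays 1 to 3. These rows may read the same transcripts and are not independent. Whether the Hk1-named row with the lone accession reads Hk1 or Rpl17 transcripts was not tested, so the Hk1 average may not be a value of Hk1 alone. The gap between both rows named Hk1, RefSeq row minus the other, was -0.14, -0.31 and -0.37 in Dicer WT and 0.32, 0.23 and 0.32 in Dicer KO. It differed by 0.56 between genotypes (exact permutation test, two-sided, p = 0.10, the smallest that 3 against 3 arrays allow).

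**Figure D2:**
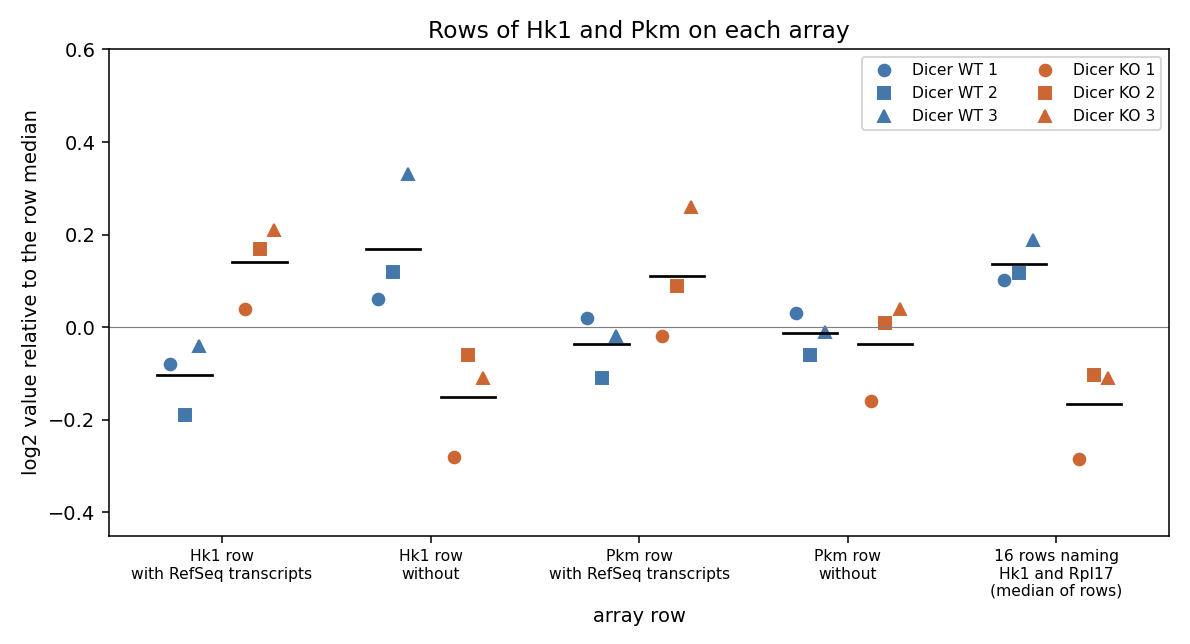
Log2 value relative to the row median (vertical axis) for both rows of Hk1, both rows of Pkm and the median of 16 rows that name Hk1 and Rpl17 (horizontal axis), on 3 Dicer WT (blue) and 3 Dicer KO (orange) arrays with genotype means as black lines. The Hk1 row with RefSeq transcripts is higher in Dicer KO by 0.25, while the Hk1 row without them is lower by 0.32, as the shared rows are.

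Pfkp, the platelet-type phosphofructokinase, was the enzyme of the set that rose. It read -0.12, -0.07 and -0.10 on the Dicer WT arrays 1 to 3 and 0.07, 0.39 and 0.38 on the Dicer KO arrays 1 to 3. All Dicer KO arrays lay above all Dicer WT arrays, and Dicer KO 1 lay much closer to them than the other two. Pfkp was 1.30-fold higher in Dicer KO (0.38 ± 0.09 SE, 3 arrays a genotype, limma adjusted p = 0.0458). Leaving out any array but Dicer KO 1 ended the call, with adjusted p of 0.141, 0.115 and 0.0904 for Dicer WT 1 to 3 and of 0.159 and 0.114 for Dicer KO 2 and 3. Centring arrays within level classes also ended it (0.29, adjusted p = 0.121). Among the other isozymes, the liver-type Pfkl had a difference of 0.34 ± 0.11 (limma adjusted p = 0.106) and the muscle-type Pfkm of -0.03 ± 0.08 (limma adjusted p = 0.883).

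Tpi1, the triose phosphate isomerase, fell, and its difference was the largest of the 8. It read 0.29, 0.25 and 0.50 on the Dicer WT arrays 1 to 3 and -0.79, -0.37 and -0.25 on the Dicer KO arrays 1 to 3. The genotypes were fully apart, and Dicer KO 1 was the lowest array. Tpi1 was 1.76-fold higher in Dicer WT (log2 -0.81 ± 0.14 SE, 3 arrays each, limma adjusted p = 0.0162). Leaving out Dicer WT 1 (-0.84, adjusted p = 0.0582) or Dicer KO 2 (-0.87, 0.055) ended the call. The genes most like Tpi1 over the 6 arrays were the ribosomal protein genes Rps3 and Rpl36, with Pearson r of 0.998 each, and Ankrd27, with 0.996. Their own differences were -0.68, -0.54 and -0.22, and 243 genes had an r above 0.95 with Tpi1. These r values are descriptions over 6 arrays that share the genotype contrast. Tpi1 has processed pseudogenes, and whether its row also reads them was not tested.

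Pkm, the pyruvate kinase of most tissues, did not pass the test. Averaged over its 2 rows, it read 0.02, -0.08 and -0.02 on the Dicer WT arrays 1 to 3 and -0.09, 0.05 and 0.15 on the Dicer KO arrays 1 to 3. Dicer KO 1 was the lowest array and Dicer KO 3 the highest, so the genotypes overlapped. The difference was 0.06 ± 0.07 (SE, 3 arrays a genotype, limma adjusted p = 0.705, 95% interval from -0.10 to 0.23). It was 0.13 without Dicer KO 1 and 0.01 without Dicer KO 3, and it turned to -0.02 with arrays centred within level classes. The row with RefSeq transcripts had a difference of 0.15 ± 0.08 (limma adjusted p = 0.35) and the row without them -0.02 ± 0.07 (0.924). The gap between both rows differed by 0.17 between genotypes (exact permutation test, two-sided, p = 0.10, again the smallest possible and not planned). The annotation does not say which splice forms of Pkm the rows read.

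**Figure D3:**
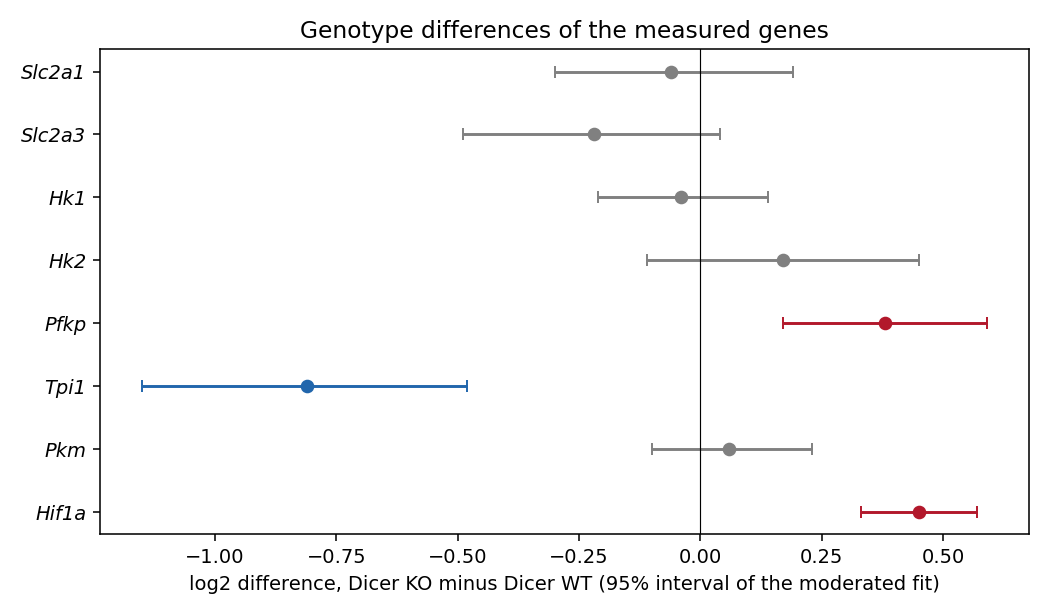
Dicer KO minus Dicer WT on the log2 scale (horizontal axis) for the 8 measured genes (vertical axis), with 95% intervals of the moderated fit over 3 arrays a genotype. Red marks genes called higher, blue the gene called lower and grey the rest, whose intervals include 0.

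The 3 Dicer KO samples differed among themselves across the set. Dicer KO 1 had the lowest value of the 3 Dicer KO arrays for 7 of the 8 genes, all but Slc2a3. Over all genes tested it was the lowest of them for 36.5%. Dicer WT 3 was the highest Dicer WT array for Slc2a1, Slc2a3, Hk1 and Tpi1, that is 4 of 8, beside 36.4% of all genes. The genes share their arrays, so these counts are not independent observations.

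Of 8 B cell markers measured, 1, Bank1, was called higher and 7 did not pass the test, and all 8 had a positive difference. Over all 19935 genes, 9016 had a positive difference, 5.94% were called higher and 2.79% lower. The median of the B cell markers was -0.57, -0.01 and -0.24 on the Dicer WT arrays 1 to 3 and 0.11, 0.06 and 0.12 on the Dicer KO arrays. Dicer WT 2 thus lay near the Dicer KO arrays. In a fit that left out Dicer WT 1 and 3, where these markers were low, the difference of Hif1a was 0.40 (limma adjusted p = 0.0966), that of Pfkp 0.35 (0.368) and that of Tpi1 -0.72 (0.232). This fit rests on Dicer WT 2 as the lone WT array, which is assumed to vary like the others. In bulk samples such as these, fewer cells of a type and less RNA per cell cannot be told apart. Of 8 T cell markers, Cd4 (0.67 ± 0.07, limma adjusted p = 0.00328) and Cd2 (0.57 ± 0.06, 0.00329) were called higher and Cd5 (-0.44 ± 0.06, 0.00704) lower, with a list median of -0.01. Cd44 did not pass (0.28 ± 0.14, limma adjusted p = 0.304). Of the other cells' markers, Lyz2 alone of 9 myeloid genes and Pecam1 alone of 5 stromal and endothelial genes were called higher. For CD8 T cells, dendritic cells and NK cells, 0 of 2, 0 of 5 and 0 of 4 markers were called, and 0 of 1 for erythroid cells. All 4 NK cell markers had a positive difference, the largest for Klrd1 (0.87 ± 0.30, limma adjusted p = 0.136). Klrd1 read 1.27, 0.93 and -0.01 on the Dicer KO arrays 1 to 3. The part of these markers in the results was not tested beyond the fit without these arrays.

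Around the 8 genes, most of the glucose pathway did not pass the test. Of 83 measured genes on 6 further lists, 4 were higher and 4 lower in Dicer KO, beside 5.94% and 2.79% of all genes. Their median difference was 0.00. The count of 8 became 4, 3 or 5 on leaving out Dicer WT 1, Dicer KO 2 or Dicer KO 3.

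Among 32 other genes of glucose transport, glycolysis and lactate handling, 0 rose and 1 fell, with a median of -0.03. The gene that fell was Slc16a1, the monocarboxylate transporter MCT1 that carries lactate and pyruvate across the membrane. It read 0.14, 0.12 and 0.39 on the Dicer WT arrays 1 to 3 and -0.12, -0.25 and -0.18 on the Dicer KO arrays. The difference was -0.40 ± 0.08 (SE, 3 arrays a genotype, limma adjusted p = 0.0298), and leaving out any array but Dicer WT 3 ended the call (adjusted p from 0.0513 to 0.12). The lactate dehydrogenase gene Ldha did not pass (0.12 ± 0.09, limma adjusted p = 0.522). On this list of 32, Dicer KO was higher without overlap in 4 genes and lower in 5, beside 13.5% and 12.7% of all genes.

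Of 9 regulators of glycolytic flux, Txnip rose and Pfkfb4 fell, with a list median of 0.00. Txnip encodes an arrestin-like protein that lowers glucose uptake by taking glucose transporters off the surface. It read -0.55, -0.56 and -0.57 on the Dicer WT arrays 1 to 3 and 0.55, 0.75 and 0.69 on the Dicer KO arrays 1 to 3. The Dicer WT arrays were nearly identical and all Dicer KO arrays lay far above them. Txnip was 2.34-fold higher in Dicer KO (1.22 ± 0.06 SE, 3 arrays a genotype, limma adjusted p = 0.000273), number 10 of 19935 genes by p. It was called under every alternative tried, with differences from 1.04 to 1.28.

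Pfkfb4 makes and breaks a regulatory fructose phosphate that switches phosphofructokinase on and is not itself an intermediate of glycolysis. It read 0.26, 0.26 and 0.12 on the Dicer WT arrays 1 to 3 and -0.12, -0.19 and -0.23 on the Dicer KO arrays. The difference was -0.40 ± 0.06 (limma adjusted p = 0.00903), and it was called without any 1 of the 6 arrays.

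**Figure D4:**
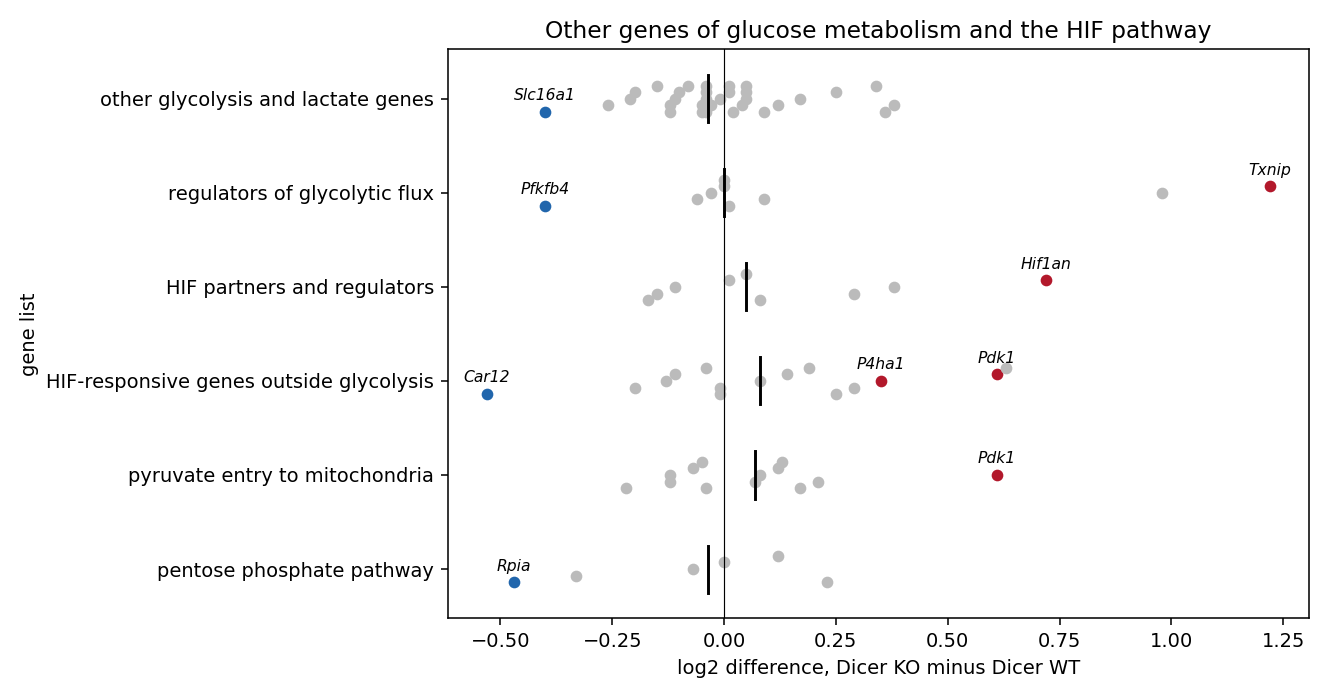
Dicer KO minus Dicer WT on the log2 scale (horizontal axis) for each measured gene of 6 lists (vertical axis), with list medians as black bars, genes called higher in red, genes called lower in blue and the rest in grey. Txnip lies farthest to the right, at 1.22, and Pdk1 stands on 2 lists.

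Among 9 partners and regulators of HIF, Hif1an rose and 0 fell, with a median of 0.05. Hif1an, the hydroxylase that lowers HIF activity, read -0.24, -0.21 and -0.22 on the Dicer WT arrays 1 to 3 and 0.21, 0.60 and 0.67 on the Dicer KO arrays 1 to 3. Dicer KO 1 was the lowest of the Dicer KO arrays and still above all Dicer WT arrays. Hif1an was 1.64-fold higher in Dicer KO (0.72 ± 0.12 SE, 3 arrays a genotype, limma adjusted p = 0.0124). Leaving out Dicer WT 1 (adjusted p = 0.0552) or Dicer KO 2 (0.0612) ended its call. The dimer partner Arnt (0.08 ± 0.08, limma adjusted p = 0.681) and Vhl (-0.15 ± 0.08, 0.34) did not pass. Nor did Epas1 (0.38 ± 0.13, limma adjusted p = 0.146) or Egln1 (0.29 ± 0.11, 0.167). On this list of 9, Dicer KO was higher without overlap in 2 genes and lower in 0, beside 13.5% and 12.7% of all genes.

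Of 15 HIF-responsive genes outside glycolysis, 2 rose and 1 fell, with a median of 0.08. Pdk1, a kinase that inhibits pyruvate dehydrogenase, read -0.23, -0.26 and -0.19 on the Dicer WT arrays 1 to 3. It read 0.58, 0.40 and 0.19 on the Dicer KO arrays, where array 1 was the highest and not the lowest. Pdk1 was 1.53-fold higher in Dicer KO (0.61 ± 0.10, limma adjusted p = 0.0104), and leaving out Dicer KO 2 ended the call (adjusted p = 0.052).

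P4ha1, a collagen prolyl hydroxylase subunit, was 1.27-fold higher (0.35 ± 0.07, limma adjusted p = 0.023). Leaving out Dicer WT 1 or 2, or Dicer KO 2 or 3, ended its call (adjusted p from 0.0644 to 0.0939). Car12, a carbonic anhydrase, fell by 0.53 on the log2 scale (SE 0.06, limma adjusted p = 0.00371) and was called without any 1 of the 6 arrays. The angiogenic factor Vegfa (-0.01 ± 0.06, limma adjusted p = 0.954) and the mitophagy receptor Bnip3 (-0.13 ± 0.07, 0.342) did not pass. Nor did Bnip3l (0.19 ± 0.06, limma adjusted p = 0.0911) or Higd1a (0.25 ± 0.07, 0.066). On this list of 15, Dicer KO was higher without overlap in 4 genes and lower in 3, beside 13.5% and 12.7% of all genes.

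Pdk1 was also the 1 gene that rose among 13 genes of pyruvate entry to mitochondria, where 0 fell and the median was 0.07. The pyruvate dehydrogenase subunits Pdha1 (0.08 ± 0.05, limma adjusted p = 0.45), Pdhb (0.17 ± 0.06, 0.122) and Dlat (-0.05 ± 0.08, 0.803) did not pass. On this list of 13, Dicer KO was higher without overlap in 3 genes and lower in 1, beside 13.5% and 12.7% of all genes.

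In the pentose phosphate pathway, which branches from glucose phosphate, 1 of 6 measured genes fell and 0 rose, with a median of -0.03. Rpia, the ribose phosphate isomerase, read 0.35, 0.12 and 0.48 on the Dicer WT arrays 1 to 3 and -0.12, -0.16 and -0.17 on the Dicer KO arrays. Its difference was -0.47 ± 0.09 (SE, 3 arrays each, limma adjusted p = 0.0217). Leaving out Dicer WT 1 or any Dicer KO array ended the call (adjusted p from 0.0527 to 0.0893).

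**Figure D5:**
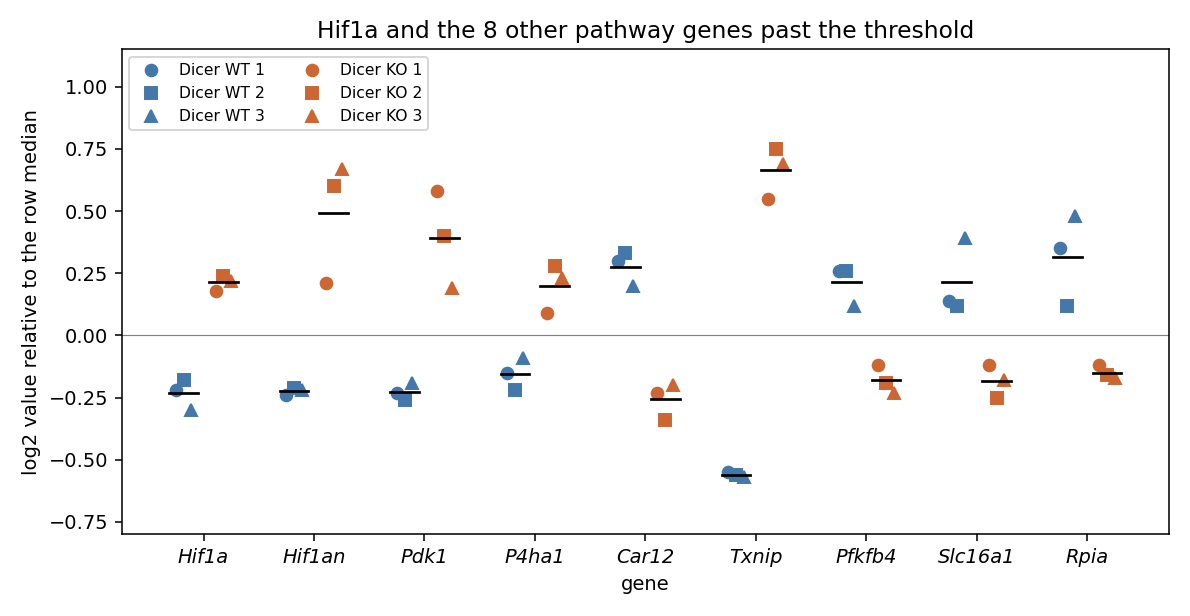
Log2 value relative to the row median (vertical axis) for Hif1a and the 8 list genes past the threshold (horizontal axis) on 3 Dicer WT (blue) and 3 Dicer KO (orange) arrays, with genotype means as black lines. No gene shown has overlapping genotypes, and Txnip has the widest gap, from at most -0.55 in Dicer WT to at least 0.55 in Dicer KO.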

How the data were processed

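The authors deposited 28815 rows of log2 values for 6 arrays. The log base is not stated and base 2 is assumed. MAS5 is listed in the submitters' processing notes, without version or role; the normalization and genome build are not stated. Every row is centred on its median over the arrays (largest absolute row median 5.0e-07), so levels are lost and the precision rests on 3 arrays a genotype.

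Gene names came from GEO's platform annotation: 21780 rows had 1 symbol, 1605 several and 5430 none here. Of the first, 21689 were given the RefSeq symbol (GRCm38.p6) of their gene ID. Rows of a gene were averaged (998 genes on several rows), and rows with several symbols were left out of the tests. The genotypes were compared in R 4.3.3 using limma 3.58.1 (lmFit, then eBayes; 3 against 3 arrays; no covariates) over 19935 genes with Benjamini-Hochberg adjustment at 0.05. The fit was tested on simulated data for this comparison over 19935 genes: 73.0% of genes changed by 0.5 and 95.0% of those changed by 1 (log2) were recovered. The simulation changed few genes, as many up as down, with noise independent between genes. These shares need not hold for the real arrays. No filter on low values was used, since the table holds no levels.

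Members and lists were chosen with earlier results of these data known. Named are all measured members, list genes past the threshold, Dicer1, isozymes, and the 3 genes whose values correlate highest with the called member of largest rise and of largest fall. Genes that did not pass and are named beside a called list were picked by role or by size of difference, after their values were seen. Alternatives were a replicate block, other scalings, single rows, robust eBayes, array weights, the higher level class alone and fits that leave out arrays. The sources used here state no pairing by replicate number, so the main fit used none.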

Additional observations from a re-analysis of the deposited data

How the results depend on the processing

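The 1741 genes called became 1024 with the higher level class alone and 213 without Dicer WT 1 and Dicer WT 3, and lay between 729 and 1597 when 1 array was left out. Of the glycolysis members, 2 were called higher; this became 1 with arrays centred within level classes and 1 without both arrays numbered 3, and 0 without Dicer WT 1 and Dicer WT 3, with 1 to 2 when 1 array was left out. The 1 member called lower became 0 with the higher level class alone, which does not hold Tpi1, and 0 without Dicer WT 1 and Dicer WT 3, with 0 to 1 when 1 array was left out. The 8 called genes of the other lists became 15 with array weights, 5 with the higher level class alone and 1 without Dicer WT 1 and Dicer WT 3, with 3 to 11 when 1 array was left out. Of the 8 called list genes, the higher level class holds Txnip, Hif1an and Pdk1 alone, so the 5 include genes that the main fit did not call. The cause of the shifts in these counts was not tested. Fits with fewer arrays or genes have less to test, so their counts are not directly comparable with the main count.

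With the replicate number as a block, 2063 genes, the same counts of 2 and 1 members and 14 list genes were called. Deviations of same-numbered arrays correlated at 0.27, -0.08 and 0.30. The arrays numbered 1 and those numbered 3 were each other's best match, that is 2 of 3 pairs, and those numbered 2 were not. So few pairs cannot decide whether same-numbered samples were paired or shared a batch, and the sources used here state no pairing.

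Some differences near 0 changed sign. Hk1 was 0.25 when each row was fitted by itself (the row of lowest p), 0.25 with only rows that carry a RefSeq transcript, an alternative chosen after seeing the data, 0.01 with array weights and 0.03 without Dicer WT 1 and Dicer WT 3. With 1 array left out, Hk1 lay between -0.07 and 0.02, Slc2a1 between -0.14 and 0.03 and Dicer1 between -0.07 and 0.08. Pkm was -0.02 and Dicer1 -0.07 with arrays centred within level classes, and Dicer1 was 0.00 with quantile normalization and -0.03 with array weights. Hif1a kept its call in all fits except that without Dicer WT 1 and Dicer WT 3 (0.40, adjusted p = 0.0966), and over all its alternatives the difference lay between 0.36 and 0.47.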

Other observations

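Some list genes had differences as large as those of called genes and did not pass limma's test. They were picked after their values were seen, and those described next all have positive differences. Other list genes that did not pass were lower in Dicer KO, such as Tkt (-0.33 ± 0.10, limma adjusted p = 0.105) and Aldoc (-0.20 ± 0.05, 0.0566). Arrdc4, an arrestin-family relative of Txnip, read -0.37, -0.33 and -0.13 on the Dicer WT arrays 1 to 3 and 0.13, 1.27 and 0.71 on the Dicer KO arrays 1 to 3, which differ by 0.98 ± 0.26 (SE, 3 arrays each, limma adjusted p = 0.0634). Ddit4, an inhibitor of mTOR signalling, read -0.50, -0.36 and 0.24 on the Dicer WT arrays and -0.19, 0.19 and 1.26 on the Dicer KO arrays, so that array 3 was the highest in both genotypes (0.63 ± 0.37, limma adjusted p = 0.407).

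In lower glycolysis, the mutase genes Pgam1 (0.38 ± 0.11, limma adjusted p = 0.0923) and Bpgm (0.36 ± 0.10, 0.0704) were close to Pfkp in size. The 3 rows of Pgam1 had differences of 0.37, 0.40 and 0.37, but they may read the same transcripts and are not independent. Ldhb, a lactate dehydrogenase subunit, had 2 rows that both list RefSeq transcripts and gave unlike answers: 0.35 ± 0.06 (limma adjusted p = 0.0156 over single rows) and 0.14 ± 0.12 (0.604), and their average did not pass (0.25 ± 0.08, 0.114).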
